A study of Ovis aries with 15 samples.

Results

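Of 56169 autosomal regions enriched for H3K4me3 in sheep perirenal fat, 9857 (17.5%) also lay on an H3K27me3 region and on no H3K27ac region, and their levels of both marks were compared between lambs and fetuses. A region was taken when at least 1 bp of it was shared with an H3K27me3 region and none with an H3K27ac region, on chromosomes 1 to 26. The whole H3K4me3 table holds 66207 regions. Perirenal fat, the depot around the kidney, came from purebred merino sheep of wild type genotype that had received no treatment, per the labels. The lambs were 80 days old in the study's design and 89 ± 7 days in its growth protocol. The fetuses were at 132 ± 1 days after conception, with term at 150 ± 3 days. H3K4me3 was measured in 3 lambs and 2 fetuses, and H3K27me3 and H3K27ac in 2 lambs and 2 fetuses each. The lamb library titles end in VEH and the fetal ones do not, so that whatever this tag stands for cannot be told apart from stage.

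H3K4me3 is laid down at promoters by the SET1 and MLL methyltransferases and marks start sites that are active or poised. H3K27me3 is laid down by Polycomb repressive complex 2 and keeps genes of other lineages and stages silent. Where both marks meet, a promoter is called bivalent, a state described at developmental regulators in embryonic stem cells, while H3K27ac on the same lysine as H3K27me3 marks active promoters and enhancers. In chromatin from whole tissue, both marks on the same nucleosomes and each mark in different cells cannot be told apart, nor can fewer cells carrying a mark and less mark per cell. Bivalent is used here for the overlap of regions alone.

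Reads in autosomal regions numbered 38775388, 11965752 and 11639736 in the H3K4me3 libraries of lambs 1, 2 and 3, against 34911259 and 53982507 in fetuses 1 and 2. In the H3K27me3 libraries they numbered 5289220 and 4244517 in lambs, against 5375459 and 5200403 in fetuses. Levels are given as RPM, the reads of a region per 1000000 autosomal region reads of its library after TMM scaling, and 1 RPM stood for 11.4 to 50.7 reads of H3K4me3 and for 4.51 to 5.59 reads of H3K27me3. Fetus 2 stood apart in H3K4me3, and lambs 2 and 3 had fewer reads than lamb 1 and are described beside the results that rest on them. Promoters of 13 of 15 adipocyte genes were in the H3K27ac table, where 5 were lower in lambs and 0 higher by limma, against 17.7% lower and 11.4% higher of all H3K27ac promoters, and their summed signal was 2799 to 2911 in lambs, against 3971 to 4097 in fetuses. Lymphocyte genes had 4 of 11 H3K27ac promoters and 3 of 9 H3K4me3 promoters higher in lambs and 0 lower, where 8.33% of all H3K4me3 promoters were higher and 1.9% lower, with a summed H3K4me3 signal of 1366 to 2354 in lambs, against 651 to 1010 in fetuses. Macrophage genes had 1 of 9 H3K27ac promoters higher and 1 lower, a share of higher calls near that of all promoters, and 2 of 9 H3K4me3 promoters higher and 0 lower, with sums of 2408 to 2991 in lambs, against 1460 to 1874 in fetuses. No promoter of these lists in the tables was at 0, and the part of a changed cell make-up in the results below was not tested.

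The bivalent regions were narrow. Their width had a median of 1200 bp, with quartiles of 900 and 1850 bp, a lowest value of 550 bp and a highest of 23200 bp. H3K27me3 covered a median of 97.8% of each, and 4846 regions (49.2%) lay inside H3K27me3 over their whole length. The H3K27me3 regions were wider, with a median of 2250 bp and a highest width of 50700 bp. Of the 9857 regions, 8751 met 1 H3K27me3 region and 1106 met 2 or more. Each was paired with the H3K27me3 region with which it shared most bases, which gave 8577 distinct H3K27me3 regions.

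H3K27ac was far from most of them. The nearest H3K27ac region was at a median distance of 30950 bp (quartiles 10550 and 75000 bp), 297 bivalent regions had one within 1000 bp, and 1800 had none within 100 kb. Bivalent regions made up the largest share of H3K4me3 regions on chromosome 14, with 634 of 2520 (25.2%), and the smallest on chromosome 8, with 208 of 1824 (11.4%). The 4 widest all lay on chromosome 14. The widest of all, chr14:46016801-46040000, had 199, 195 and 181 RPM of H3K4me3 in lambs, against 145 and 228 in fetuses, and H3K27me3 covered 900 bp of it. At the edge of the rule, 67 regions shared 50 bp or less with H3K27me3, such as chr1:2687251-2688400 with 5.0 RPM per kb, and 118 regions without H3K27ac missed H3K27me3 by 50 bp or less, such as chr1:249754001-249754550 with 4.59. Genome coordinates are those of the Oar_v3.1 build, and the regions were not linked to genes, since no annotation of that build was used here.

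The median H3K4me3 change between the stages was small. The level, in RPM per kb, had a median of 6.29 in lambs, against 4.78 in fetuses. Autosomal H3K4me3 regions with H3K27ac alone had 5.78 in lambs, against 4.75 in fetuses, and those with neither other mark had 5.51 in lambs, against 4.17 in fetuses. At the bivalent regions the median log2 change of lamb minus fetus was 0.24. Over all tested regions that median was 0.10. Autosomal regions with neither other mark had 0.27, so that a rise of this size was not particular to bivalent regions. Those with H3K27ac alone had -0.03. Those with all 3 marks had -0.21, at levels of 7.63 in lambs, against 8.79 in fetuses. In the single libraries, the median bivalent region had 7.11, 8.51 and 7.78 RPM in lambs 1, 2 and 3, against 7.29 and 4.60 in fetuses 1 and 2. The value of fetus 1 thus lay among those of the lambs, and fetus 2 was below all other libraries. The shift over all 9857 regions was within the spread of the fetal libraries, and without fetus 2 the median change was -0.09, against 0.60 without fetus 1.

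**Figure D1:**
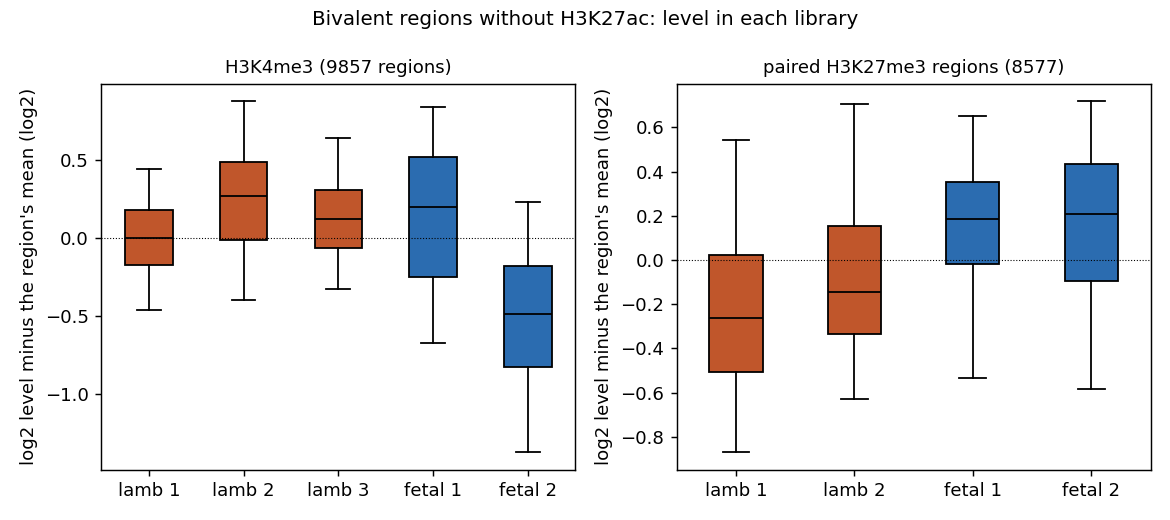
Each box shows, for 1 library, the log2 level of every bivalent region minus that region's mean over the libraries of the mark (line, median; box, quartiles; whiskers, 5th and 95th percentiles), for 9857 H3K4me3 regions on the left and 8577 paired H3K27me3 regions on the right. The H3K4me3 medians are -0.0006, 0.27 and 0.12 in lambs and 0.20 and -0.49 in fetuses, and the H3K27me3 medians are -0.26 and -0.15 in lambs and 0.19 and 0.21 in fetuses.

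With all libraries, more single regions rose than fell. By edgeR's quasi-likelihood test with Benjamini-Hochberg adjustment over all 66207 regions, 366 of the 9857 (3.71%) were higher in lambs and 6 (0.0609%) lower, against 1.06% and 0.264% of all tested regions and 1.22% and 0.296% of autosomal ones. Among the other autosomal H3K4me3 regions, 1.58% of the 14786 without either other mark, 0.11% of the 29035 with H3K27ac alone and 2.25% of the 2491 with all 3 marks were higher. In 2894 bivalent regions (29.4%) every lamb was above every fetus, against 22.6% of all tested regions, and in 638 (6.47%) every lamb was below every fetus, against 17.7%. Without fetus 2 the median change of the bivalent regions was -0.09, against 0.16 over all tested regions. Without fetus 1 it was 0.60, against 0.004, and in both fits the lone fetus is assumed to vary as the lambs do. The 366 calls depended on lamb 2 and on scaling. They came to 0 without lamb 2 and 0 under a scaling that varied with level, where 0 of all 66207 regions were called higher as well. At an unadjusted p under 0.05, 1318 and 1471 members were higher there. DESeq2 with all libraries called 885 members higher, against 1949 of the 46953 regions of all chromosomes with an adjusted p.

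The sign of the change followed width. With the bivalent regions divided into 4 classes of width, the narrowest, up to 900 bp, had a median H3K4me3 change of 0.54, with 127 regions higher and 0 lower. In the following classes it was 0.36, 0.10 and -0.16, with 131, 72 and 36 higher and 1, 2 and 3 lower. Other autosomal H3K4me3 regions within the same bounds of width had medians of 0.42, 0.28, 0.05 and -0.65, so that the fall with width was also seen outside the bivalent regions. The 366 higher regions had a median width of 1050 bp and, chosen as they were by their change, a median log2 change of 1.71.

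The largest called increase was at chr16:20708401-20709200, which had 6.68, 55.3 and 101 RPM in lambs 1, 2 and 3, against 3.18 and 1.72 in fetuses (log2 change 4.47, SE 0.75, edgeR adjusted p = 0.0167). This region holds a 5S_rRNA copy (20708738 to 20708866), a gene of the small ribosomal RNA of the large subunit, present in many near-identical copies, so that its reads cannot be assigned with certainty. Its H3K27me3 did not change beyond the spread, with 6.26 and 9.09 in lambs, against 5.94 and 11.1 in fetuses (log2 change -0.16). At chr4:105034401-105035200 the values were 2.95, 30.1 and 42.7 in lambs, against 1.46 and 0.888 in fetuses (log2 change 4.42). At chr17:45264051-45265000 they were 2.22, 21.8 and 33.6 in lambs, against 1.04 and 0.789 in fetuses (4.37), and at chr18:57827851-57828700 they were 1.79, 24.3 and 39.7 in lambs, against 1.52 and 0.730 in fetuses (4.28).

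In each of these 4 regions lamb 1 was closer to the fetuses than to lambs 2 and 3, the libraries with fewest reads. Of the 26 bivalent regions with a log2 change above 2.8, all of them called, 24 had more than 3 times the level of lamb 1 in both lamb 2 and lamb 3. Over all bivalent regions 40 showed this split, and 29 of these were called higher. Whether it comes from the animals or the libraries was not tested.

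The largest of the 6 decreases were smaller than the 4 largest increases. At chr17:8851-9900 the level was 70.3, 40.4 and 45.8 RPM in lambs, against 108 and 302 in fetuses (log2 change -1.97, SE 0.44, edgeR adjusted p = 0.0385). At chr5:16132251-16133500 it was 2.45, 3.05 and 2.53 in lambs, against 12.7 and 6.59 in fetuses (-1.86), and at chr19:58152751-58154950 it was 5.77, 6.98 and 6.12 in lambs, against 25.8 and 17.8 in fetuses (-1.80). The lambs lay below the fetuses in these 3 regions, as the rule for naming them required.

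**Figure D2:**
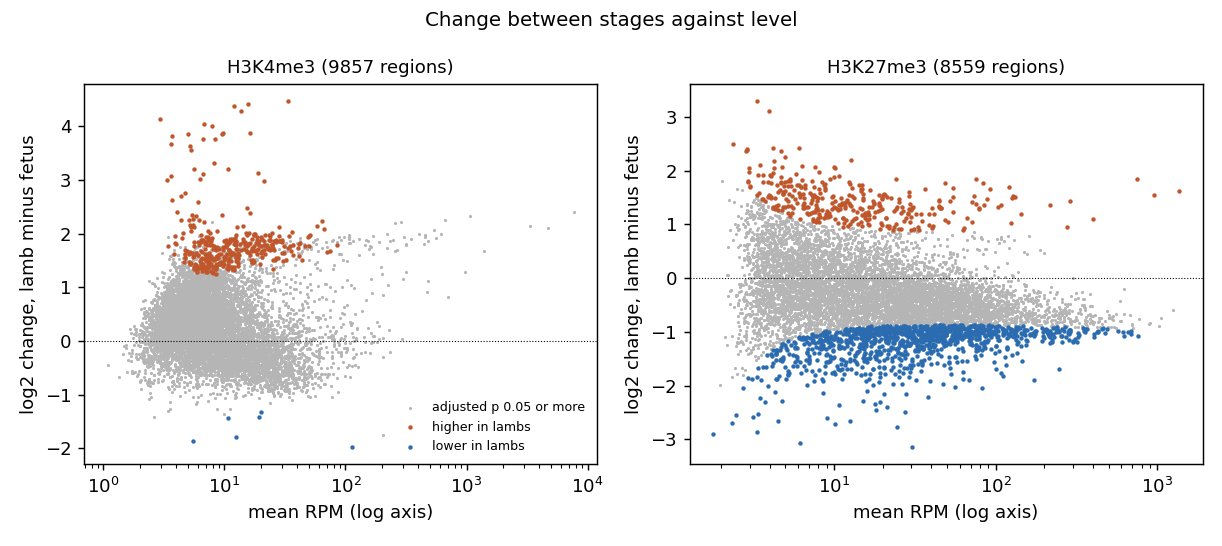
Points are bivalent regions, with mean RPM over the libraries of the mark on a log axis and the log2 change of lamb minus fetus on the vertical axis, for 9857 H3K4me3 regions on the left and 8559 tested H3K27me3 regions on the right. Of the 366 H3K4me3 regions called higher 17 lie below 4.67 RPM, and of the 1131 H3K27me3 regions called lower 418 lie above 43.1.

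H3K27me3 was lower in lambs over most of the bivalent regions. Its median level was 6.97 RPM per kb in lambs, against 8.16 in fetuses, and the median log2 change over the 8559 tested H3K27me3 regions paired with a bivalent region was -0.39. All tested autosomal H3K27me3 regions had a median of 0.01. The median region had 14.5 and 15.7 RPM in lambs 1 and 2, against 18.6 and 18.9 in fetuses, so that both lambs were below both fetuses. Of the 8577 paired regions 18 were too weak to be tested.

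By edgeR's quasi-likelihood test, 338 of the 8559 (3.95%) were higher in lambs and 1131 (13.2%) lower. Of all tested H3K27me3 regions 2.5% were higher and 14.3% lower, but 23671 of the 107166 listed lie on the X chromosome, and among autosomal regions 3.19% were higher and 4.57% lower. Both lambs were below both fetuses in 4584 paired regions (53.6%), against 28.0% of autosomal regions, and above both in 1108 (12.9%), against 28.6%. Autosomal H3K27me3 regions that met H3K4me3 but were not paired with a bivalent region had a median change of -0.54 and 20.9% of calls lower, and those without H3K4me3 had 0.09 and 2.60%. The lower calls were few when a fetus was left out, 20 without fetus 1 and 10 without fetus 2, in fits that set 1 fetus against 2 lambs and take the spread from the lambs, while the median change stayed between -0.46 and -0.36 without any 1 library. Under a scaling that varied with level it was -0.13, with 327 paired regions lower and 311 higher. All tested regions, those on X included, then had a median of -0.20, with 5623 of 106007 lower and 1011 higher. Under that scaling the paired regions thus did not lie below the median of all tested regions.

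The wider the H3K27me3 region, the lower was its change. In 4 classes from the narrowest to the widest paired regions the median log2 change was -0.02, -0.26, -0.48 and -0.61, and 64, 249, 397 and 421 regions were lower. Other autosomal regions within the same bounds had medians of 0.21, -0.05, -0.25 and -0.35, higher in each class than the paired regions. In 4 classes of mean RPM, from the lowest to the highest, the paired regions had medians of -0.06, -0.25, -0.45 and -0.61. The parts of width and level were not separated. The 1131 lower regions had a median width of 3550 bp, a fetal level of 11.3 RPM per kb and a log2 change of -1.10, whereas the 338 higher ones had 1275 bp, a fetal level of 4.08 and a change of 1.38. Both groups were chosen by their change, which by itself favours such fetal levels and changes.

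The largest called H3K27me3 decrease was at chr4:94835651-94840300, paired with the bivalent region chr4:94839501-94840350. It had 4.11 and 8.42 RPM in lambs, against 48.5 and 60.8 in fetuses (log2 change -3.14, SE 0.37, edgeR adjusted p = 3.72e-08). H3K4me3 there differed little, at 5.24, 4.33 and 4.72 in lambs, against 5.21 and 3.61 in fetuses (log2 change 0.12). The region paired with chr3:219968001-219968700 had 1.43 and 1.11 in lambs, against 5.94 and 16.2 in fetuses (-3.07), and that paired with chr3:8169651-8171800 had 1.07 and 0.443 in lambs, against 6.52 and 5.24 in fetuses (-2.87).

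The largest increases of H3K27me3 began from low fetal levels, which a choice by change favours. Not all increases did, since 43 of the 338 higher regions had a mean level above 43.1 RPM. The region paired with chr21:6501-7300 had 7.69 and 4.43 RPM in lambs, against 0.767 and 0.420 in fetuses (log2 change 3.30, SE 0.65, edgeR adjusted p = 0.0014), where the fetal values stand for a few reads each. The region paired with chr25:2848001-2849000 had 7.15 and 7.09 in lambs, against 0.959 and 0.629 in fetuses (3.12), and that paired with chr15:94001-95400 had 8.94 and 11.8 in lambs, against 2.49 and 1.26 in fetuses (2.43). The lambs lay above the fetuses in all 3, as the rule for naming them required. At the last of them H3K4me3 was also higher, with 17.6, 26.2 and 22.7 in lambs, against 9.29 and 3.43 in fetuses (log2 change 1.80, edgeR adjusted p = 0.038).

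In the fits with all libraries, no bivalent region was called in opposite directions in the 2 marks. Some promoters described below, such as NKX2-6, were called lower in H3K27me3 and higher in H3K4me3. Of the 366 regions with higher H3K4me3, 145 also had higher H3K27me3 (143 distinct H3K27me3 regions), 221 had no H3K27me3 call, and 0 had lower H3K27me3. Of the 6 with lower H3K4me3, 2 also had lower H3K27me3. The largest group of calls was one of H3K27me3 alone: 1457 bivalent regions (1129 distinct H3K27me3 regions) had lower H3K27me3 without an H3K4me3 call, 202 had higher H3K27me3 without one, and 7808 were called in neither mark. Across 9839 regions the 2 changes correlated with r = 0.57 (Spearman's rho 0.48), as a description, since the same animals gave libraries of both marks, several bivalent regions can share an H3K27me3 region, and both changes fell with width.

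**Figure D3:**
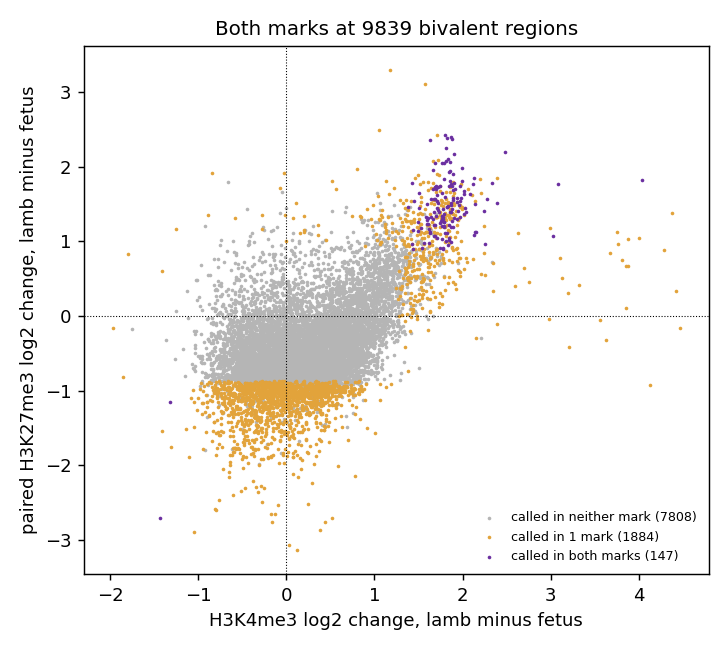
Each point is 1 of 9839 bivalent regions tested in both marks, with the H3K4me3 log2 change of lamb minus fetus on the horizontal axis and that of the paired H3K27me3 region on the vertical axis. The 147 regions called in both marks lie at the upper right (145) and lower left (2), and the 1457 regions with lower H3K27me3 alone lie below the centre.

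Among the regions higher in both marks, chr20:26993351-26995250 had 22.8, 32.3 and 13.3 RPM of H3K4me3 in lambs, against 5.07 and 3.16 in fetuses (log2 change 2.48, edgeR adjusted p = 0.0167). Its H3K27me3 was 14.8 and 26.8 in lambs, against 5.18 and 3.78 in fetuses (2.20, edgeR adjusted p = 0.000169). The region lower in both marks with the larger change, chr9:61477951-61479700, had 8.27, 5.38 and 5.33 RPM of H3K4me3 in lambs, against 12.6 and 22.1 in fetuses (-1.44). Its paired H3K27me3 was 2.68 and 2.66 in lambs, against 15.3 and 19.9 in fetuses (-2.71, edgeR adjusted p = 8.63e-06). The other one, chr9:86060651-86062650, had log2 changes of -1.32 and -1.16.

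Regions near the start of a chromosome stood out in the calls, a split that was looked at after the calls were seen. Of 174 bivalent regions within 200 kb of the first base of 24 chromosomes, 66 (37.9%) had higher H3K4me3, 105 (60.3%) had higher H3K27me3 and 53 had both. These 53 were part of the 145 regions higher in both marks. In the other 9683 bivalent regions the shares higher were 3.1% in H3K4me3 and 2.5% in H3K27me3. Of the 174, 1 had lower H3K4me3, chr17:8851-9900 named above, and 4 (2.3%) had lower H3K27me3. Of the 9683, 5 had lower H3K4me3 and 1455 (15.0%) had lower H3K27me3. The median H3K4me3 level of the 174 was 20.8, 31.3 and 26.2 RPM in lambs, against 13.5 and 6.36 in fetuses, and the median of their 161 H3K27me3 regions was 12.7 and 16.9 in lambs, against 6.13 and 6.92 in fetuses. Lambs were above fetuses without overlap in both medians, and the median log2 changes were 1.70 and 1.32. Over all settings tried the H3K4me3 median ran from 1.16 to 2.50 and the H3K27me3 median from 1.18 to 1.61, although the calls did not hold in all of them. The 66 H3K4me3 calls came to 0 without lamb 2, 0 without lambs 2 and 3, 0 with scaling from all chromosomes, 0 with the level-dependent offset and 11 with the replicate block, and the 105 H3K27me3 calls came to 1 without fetus 1 and 0 without fetus 2.

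The rise at chromosome starts was not limited to bivalent regions. Of 130 other autosomal H3K4me3 regions within 200 kb, 24 were higher (median log2 change 0.65), and of 170 other H3K27me3 regions there 40 were higher (0.60). Dense groups of calls also lay inside chromosomes. Between 106 and 107 Mb of chromosome 3, 15 of 28 bivalent regions were higher in both marks, and between 2 and 3 Mb of chromosome 25, 10 of 16 were. Between 22 and 23 Mb of chromosome 7, 13 of 27 bivalent regions had higher H3K4me3 and 1 of them higher H3K27me3.

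Falls of H3K27me3 were grouped in other places. Between 29 and 30 Mb of chromosome 19, 36 of 41 bivalent regions lay on 22 H3K27me3 regions that were lower in lambs (median log2 change -1.44), and 0 were called in H3K4me3 (median -0.05). Between 49 and 50 Mb of chromosome 21, 16 of 33 had lower H3K27me3 (median -1.21), and in the same interval of chromosome 5, 16 of 65 did (median -0.68). These windows too were chosen for their calls.

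Some H3K27me3 regions held many bivalent regions. In 902 there were 2 or more and in 62 there were 5 or more, with 401 bivalent regions in these 62. The region chr3:132393901-132438450 held 14, chr11:37304751-37355450 held 13 and chr20:30042001-30088550 held 11, and none of the 3 held an H3K27ac region or another H3K4me3 region. Bivalent regions filled 55.0%, 42.4% and 72.3% of their length. H3K27me3 in the region on chromosome 3 was 623 and 652 RPM in lambs, against 1105 and 1196 in fetuses (log2 change -0.85, edgeR adjusted p = 0.0778). On chromosome 11 it was 673 and 754 in lambs, against 1250 and 1406 in fetuses (-0.90, edgeR adjusted p = 0.0658), and on chromosome 20 it was 396 and 600 in lambs, against 878 and 919 in fetuses (-0.85, edgeR adjusted p = 0.077). Both lambs were below both fetuses in all 3, yet none passed the threshold, and none of their 38 bivalent regions was called in H3K4me3.

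**Figure D4:**
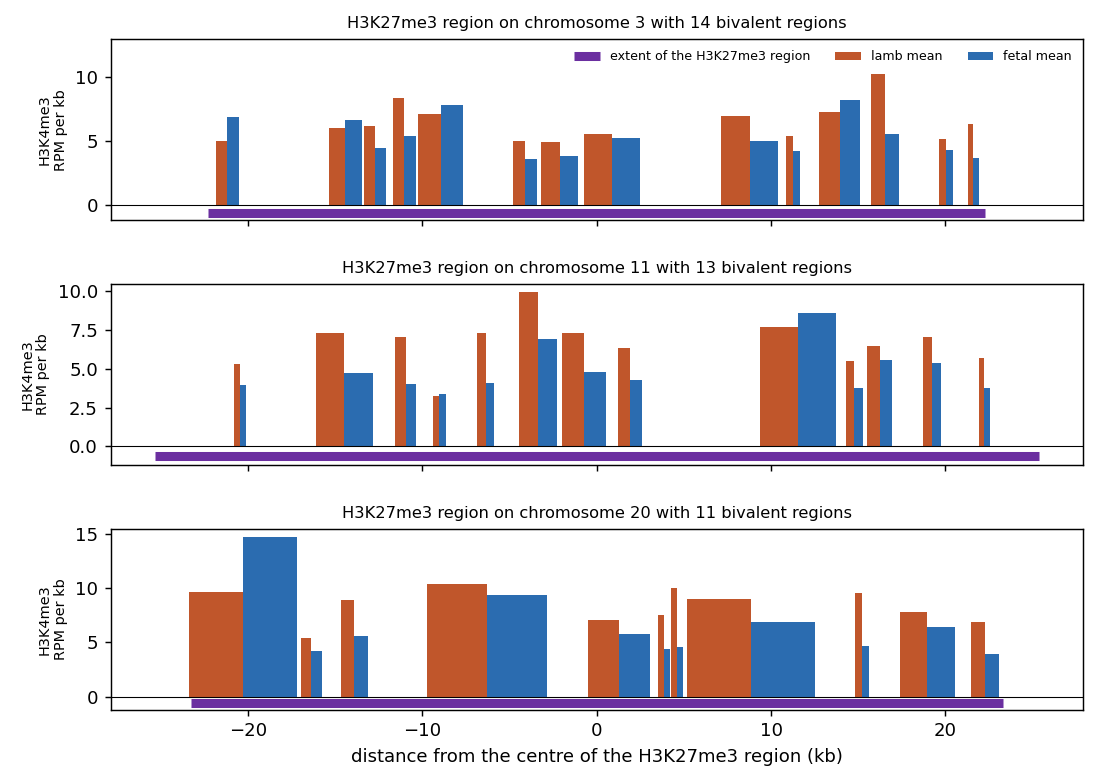
Each panel maps 1 of the 3 H3K27me3 regions with most bivalent regions, with distance from its centre in kb on the horizontal axis. A pair of bars together spans the width of 1 bivalent region and gives its mean H3K4me3 level in lambs (left bar) and fetuses (right bar) in RPM per kb, from 3.22 to 10.3 in lambs and from 3.37 to 14.7 in fetuses, and the thick line is the extent of H3K27me3.

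A small number of bivalent regions had very high levels of both marks. H3K4me3 exceeded 100 RPM per kb in 32 regions, against a median of 5.91 over all 9857. The highest, chr1:265047001-265047950, had 9514, 11840 and 12730 RPM of H3K4me3 in lambs, against 3657 and 666 in fetuses (log2 change 2.39, edgeR adjusted p = 0.15). Its H3K27me3 was 1561 and 796 in lambs, against 313 and 344 in fetuses (1.84, edgeR adjusted p = 0.00139). At chr6:6132851-6133850 H3K4me3 was 4606, 7229 and 8471 in lambs, against 2509 and 635 in fetuses, and H3K27me3 was 2526 and 1599 in lambs, against 678 and 662 in fetuses. Lambs were above fetuses in both marks at both sites. The pooled input libraries were not in the tables, so that a raised count of all chromatin at such sites was not tested.

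These 32 regions weighed on the share of reads. The bivalent regions held 14.9%, 18.8% and 17.3% of autosomal H3K4me3 region reads in lambs, against 15.7% and 8.56% in fetuses, or 16.99% ± 1.93 in lambs (SD, n = 3) and 12.1% ± 5.04 in fetuses (SD, n = 2; two-sided exact permutation p = 0.4, where 0.2 is the smallest possible). Without the 32, an alternative chosen after seeing the data, the shares were 13.04% ± 1.12 in lambs and 11.1% ± 4.196 in fetuses (exact permutation p = 0.6). The paired H3K27me3 regions held 28.1% and 30.2% of autosomal H3K27me3 region reads in lambs, against 36.5% and 37.3% in fetuses. The means were 29.2% ± 1.46 in lambs and 36.9% ± 0.574 in fetuses (SD, n = 2 each; exact permutation p = 0.33, the smallest possible), a difference larger than the spread of either stage in a design that cannot reach the threshold.

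Gene names can be read for a few regions only. Some genes with repeated symbols carry their coordinates in the promoter tables, and 18 bivalent regions overlap one of 19 such genes. They include 3 with 5S_rRNA copies, 3 with copies of the spliceosomal RNA U1, 3 with copies of U6 and 1 with a Y_RNA. Apart from the region on chromosome 16 none of the 18 was called in H3K4me3. The Y_RNA region, chr4:111536851-111539300, lay on an H3K27me3 region that was lower in lambs (log2 change -1.15, edgeR adjusted p = 0.0153). The region chr23:43867501-43868250 overlaps a gene listed under the repeated symbol MC1R. It had log2 changes of 0.28 in H3K4me3 and 0.83 in H3K27me3, neither of them called (edgeR adjusted p = 0.702 and 0.126).

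The same combination of marks was then read by gene in the promoter tables, whose values are scaled signals over windows not given in the sources used here. Of 12922 promoters listed for H3K4me3 and 6334 for H3K27me3, 3522 were in both tables and 1612 of these were not among the 13222 listed for H3K27ac. These 1612 can include the X chromosome, since the tables give no positions for most genes. Their H3K27me3 fell in 256 (15.9%) and rose in 28 (1.74%) by limma on log2(value + 1), with Benjamini-Hochberg adjustment over the table, against 8.83% and 4.42% of all H3K27me3 promoters. Their H3K4me3 rose in 417 (25.9%) and fell in 0, against 8.33% and 1.9% of all promoters (899 were higher and 2 lower at an unadjusted p under 0.05). They were weak in H3K4me3, with a median value of 195, against 381 for all promoters, and their median log2 change was 1.04, against 0.003. With the deposited scaling kept, under which the median of all promoters was -1.28, 29 rose and 140 fell, and without lamb 3 only 3 rose.

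H3K27me3 was lower at many promoters of developmental regulators in this set. Of 117 promoters from 6 gene lists, 51 (43.6%) were lower in lambs and 0 higher (79 and 1 at an unadjusted p under 0.05). Of the 1612, 15.9% were lower, and of all H3K27me3 promoters 8.83%, the shares to set beside each list below. Lambs were below fetuses without overlap in all 51, which were chosen by their call, so that this adds little to it. Over all 117 the median log2 change was -0.52, against -0.205 for the 1612 and 0.02 for all promoters. These calls came to 9 without fetus 1, 3 without fetus 2 and 0 without lamb 2, while the median stayed between -0.61 and -0.43 without any 1 library. With the deposited scaling 33 were lower. Their H3K4me3 was higher in 15 of 117 and lower in 0, a smaller share than the 25.9% of the 1612, and their median of 0.65 was below the 1.04 of that set. The 15 calls came to 0 without lamb 2, 0 without lamb 3 and 0 without fetus 2 (1 lower), and with the deposited scaling 1 was higher and 22 lower. The median was -0.07 without fetus 2 and -0.64 with the deposited scaling.

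The HOX genes, which set position along the body axis, were lower in H3K27me3 at all 7 promoters in the set, of 39 listed (median log2 change -0.66). HOXD13, the most distal gene of its cluster and a regulator of limb and urogenital patterning, had 806 and 1018 in lambs, against 1586 and 1589 in fetuses (log2 change -0.81, SE 0.14, limma adjusted p = 0.00159). HOXC12 had 554 and 602 in lambs, against 1055 and 993 in fetuses (-0.83), and HOXC11 had 603 and 610 in lambs, against 968 and 949 in fetuses (-0.66). At HOXB13, a posterior gene known from the prostate and hindgut, H3K27me3 was 665 and 668 in lambs, against 981 and 1178 in fetuses (-0.69, limma adjusted p = 0.00772). Its H3K4me3 was 187, 488 and 381 in lambs, against 172 and 106 in fetuses (1.27, limma adjusted p = 0.0313, or -0.01 with the deposited scaling).

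Of 54 other homeobox promoters, 25 had lower H3K27me3 and 0 higher (median log2 change -0.57), and 11 had higher H3K4me3 and 0 lower (median 0.56), where 25.9% of the 1612 were higher with a median of 1.04. NKX2-1, the regulator of thyroid and lung, had an H3K27me3 signal of 416 and 313 in lambs, against 706 and 838 in fetuses (-1.09, limma adjusted p = 0.00172). ISL2 of motor neurons had 537 and 552 in lambs, against 941 and 1097 in fetuses (-0.90). NKX2-6, a cardiac and pharyngeal factor, was called in both marks, with an H3K27me3 change of -0.75 and an H3K4me3 change of 1.20 (limma adjusted p = 0.00267 and 0.0229). Its H3K4me3 was 278, 630 and 467 in lambs, against 259 and 138 in fetuses, and its change was -0.09 with the deposited scaling.

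Among SOX, GATA and T-box genes 6 of 12 promoters had lower H3K27me3 and 0 higher (median log2 change -0.58). GATA4 of the heart and gonad had 367 and 491 in lambs, against 870 and 976 in fetuses (-1.12, limma adjusted p = 0.000945). SOX21, a repressor in neural progenitors, had 262 and 190 in lambs, against 528 and 569 in fetuses (-1.29), and TBR1 of cortical neurons had 590 and 688 in lambs, against 998 and 1252 in fetuses (-0.81). The cardiac factor TBX20 changed by -0.67.

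Forkhead genes were lower at 7 of 13 promoters and higher at 0 (median log2 change -0.59). FOXA1, a pioneer factor of endoderm and hormone-dependent epithelia, had an H3K27me3 signal of 311 and 379 in lambs, against 662 and 788 in fetuses (-1.07, limma adjusted p = 0.00178). FOXB1 had 721 and 581 in lambs, against 840 and 821 in fetuses, and was not called (-0.36). H3K4me3 was called at 0 of the 13, and at FOXA1 it was 347, 355 and 369 in lambs, against 385 and 294 in fetuses.

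The bHLH factors of nerve and muscle had 5 of 12 promoters lower in H3K27me3 and 0 higher (median log2 change -0.50). MSC, the musculin repressor, had 449 and 515 in lambs, against 864 and 912 in fetuses (-0.88, limma adjusted p = 0.00276). NEUROD2, a neuronal differentiation factor, was lower in H3K27me3 (-0.51) and higher in H3K4me3, with 134, 408 and 285 in lambs, against 107 and 56.1 in fetuses (1.67, limma adjusted p = 0.0228). Secreted WNT, FGF, BMP and hedgehog ligands differed least of the 6 lists in H3K27me3, with 1 of 19 lower, FGF20 (-0.84), and 0 higher (median -0.35). This share of lower calls was below the 15.9% of the 1612 and the 8.83% of all H3K27me3 promoters. SHH, the hedgehog ligand of neural tube and limb, had an H3K27me3 signal of 776 and 561 in lambs, against 682 and 720 in fetuses, values that overlap. WNT10A and WNT3A had higher H3K4me3 (1.76 and 2.28, limma adjusted p = 0.047 and 0.0437). These 2 of 19 were a share near the 8.33% of all H3K4me3 promoters and below the 25.9% of the 1612.

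**Figure D5:**
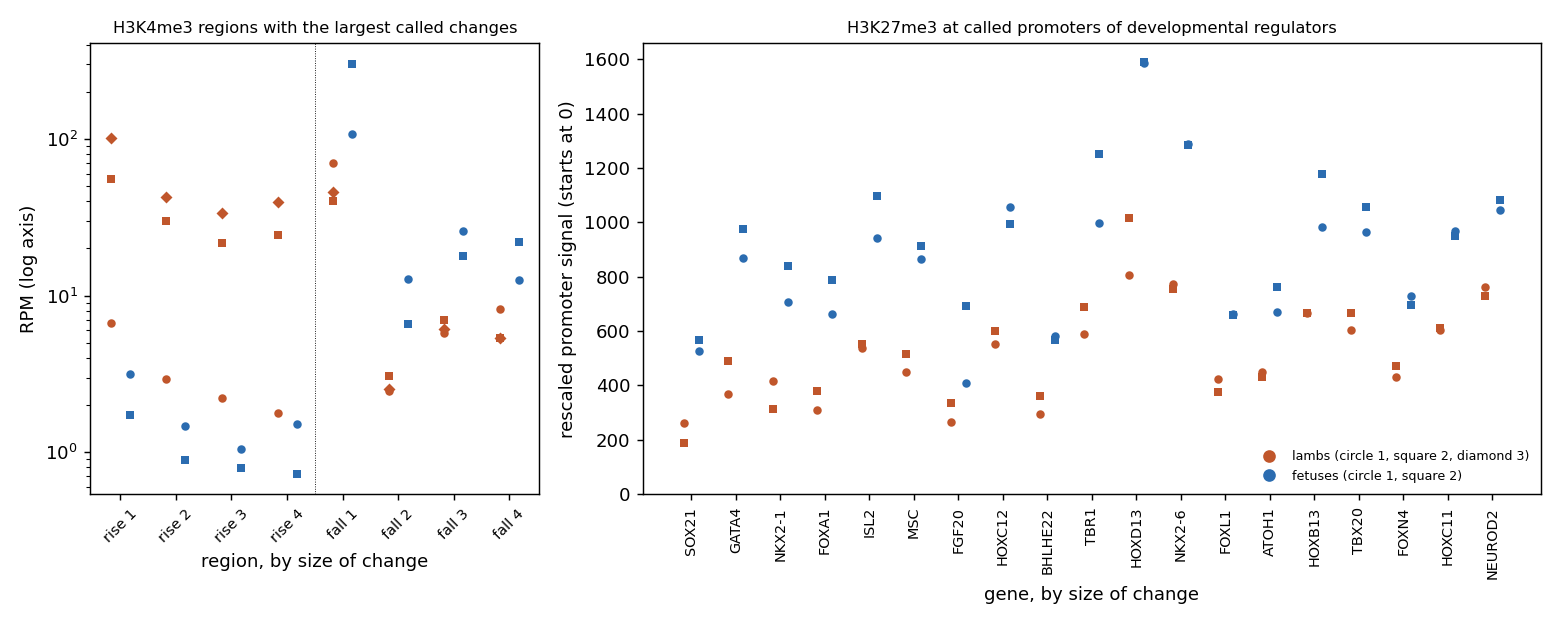
The left panel plots RPM of H3K4me3 on a log axis in each library for the 4 largest called increases (rise 1 to 4) and decreases (fall 1 to 4) among bivalent regions, with lambs left of fetuses. The right panel plots the rescaled H3K27me3 promoter signal in each library for called promoters from the 6 gene lists, from SOX21 (-1.29) to NEUROD2 (-0.51). Both lambs lie below both fetuses at every gene shown, all of them chosen by their call.

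Outside these lists the largest H3K27me3 decreases with a gene symbol were at PPM1N and RTN2, a phosphatase and a reticulon of the endoplasmic reticulum. PPM1N had 88.4 and 98.9 in lambs, against 296 and 263 in fetuses (log2 change -1.57, limma adjusted p = 0.00275), and RTN2 had 85.2 and 98.9 in lambs, against 289 and 249 in fetuses (-1.54). Their values were nearly the same in each library, so that both windows may count the same reads. PCDHA11, a clustered protocadherin of neurons, had 65.5 and 177 in lambs, against 353 and 239 in fetuses (-1.42), and ENSOARG00000008115, with no symbol in the tables, had 249 and 342 in lambs, against 1247 and 956 in fetuses (-1.90, limma adjusted p = 2.35e-05). The largest H3K4me3 increases were at 5S_rRNA copies on chromosomes 10 and 16 (3.43 and 3.29), where lamb 1 again lay closer to the fetuses than to lambs 2 and 3. RPH3A, which encodes the synaptic vesicle protein rabphilin, had 120, 425 and 257 in lambs, against 48.0 and 32.9 in fetuses (2.54, limma adjusted p = 0.0043).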

How the data were processed

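Chromatin from 3 lambs and 2 fetuses (H3K4me3) or 2 and 2 (H3K27me3, H3K27ac) was digested to fragments of about 150 bp, immunoprecipitated and sequenced as single reads of 50 bp, per the labels. Reads were mapped to Oar_v3.1 in CLC Genomics Workbench 7.0, per the series' design text, and the submitters' processing notes name MACS, edgeR and bedtools 2.19.0 without their roles. The authors deposited whole-number read counts per peak region, from tables named for PeakRanger, a peak caller, per the labels, and a scaled signal per promoter. The sources used here give neither that scale nor how regions were merged over libraries. Region bounds are multiples of 50 bp, and starts were raised by 1 to count from 1. The pooled input libraries were not used here.

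The deposited counts were tested with edgeR 4.0.16 (filterByExpr, library totals and TMM factors from chromosomes 1 to 26, quasi-likelihood test, adjustment over the whole table, threshold 0.05), and promoter signals with limma 3.58.1 (trend) on log2(value + 1) after rescaling by column totals and TMM. Contrasts are lamb minus fetus, with DESeq2 1.42.0 as an alternative, and the fits were tested on simulated data. The simulated counts varied less between libraries than the real ones, so that such a run does not cover a library that stands apart. Shares were compared by exact permutation. 1 promoter row without a gene (H3K27me3) was dropped. The members, gene lists and tests were chosen with earlier results of these data known. Regions named are the 4 largest called changes without overlap each way per mark, the 4 highest, the 4 widest, up to 4 called in both marks, the 3 densest and those at the rule's edge, of which the text gives most. Promoters named are the 5 largest changes each way and up to 4 called and 2 strongest per list, of which the text gives most and some are not reported here. Lambs and fetuses with the same replicate number are different animals, and the numbers do not pair (correlation of deviations -0.13 for H3K4me3 and 0.08 for H3K27me3). The labels name separate animals, so that p-values measure the spread between animals and libraries together. All 9857 regions passed the filter in H3K4me3 (median 197 reads per library) and 8559 of 8577 in H3K27me3 (median 86.3 reads).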

Additional observations from a re-analysis of the deposited data

How the results depend on the processing

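The count of members (9857) was 9041 with 50% overlap and 9560 without H3K27ac within 1000 bp, and both definitions, like no filter on low counts, kept each count of calls within 1.5 times. H3K4me3 calls moved most: 366 higher and 6 lower became 885 and 119 with DESeq2, 258 and 3 with totals alone, 0 and 0 with a level-dependent offset, 15 and 2 with scaling from all chromosomes, 243 higher over autosomal rows only, 85 and 0 with the replicate block and 0 and 0 without lambs 2 and 3 (318 and 23 at an unadjusted p under 0.05). Leaving out 1 library gave 0 to 3489 higher and 0 to 933 lower, and a median change of -0.0873 to 0.60 around 0.24. Where this leaves 1 fetus or 1 lamb, that sample is assumed to vary like the other stage. The highest count came without fetus 1, where the median was 0.60, against 0.004 over all tested regions. Without fetus 2 the median was -0.09, against 0.16. The 338 higher and 1131 lower H3K27me3 regions became 190 higher with DESeq2, 433 lower with totals alone, 327 lower with the level-dependent offset, 669 and 553 with scaling from all chromosomes and 2273 lower over autosomal rows only, with 339 and 1070 under the replicate block. Their median of -0.39 was -0.22 with totals alone, -0.13 with the offset and -0.0921 with scaling from all chromosomes. Leaving out 1 library gave 0 to 582 higher, 10 to 3298 lower and medians of -0.46 to -0.36. The median of all tested H3K4me3 regions moved from 0.10 to -0.08 with the offset. That of all tested H3K27me3 regions moved from -0.24 to -0.20 with the offset, -0.07 with totals and 0.05 with scaling from all chromosomes. H3K27me3 reads in regions of all chromosomes numbered 7522649 and 7233767 in lambs, against 10645917 and 10144027 in fetuses. Of these, 5289220 and 4244517 were autosomal in lambs, against 5375459 and 5200403 in fetuses, so that regions off the autosomes held a larger part in fetuses. The cause of the moves between settings was not tested.

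Of the 1612 promoters, 417 higher and 0 lower in H3K4me3 became 29 and 140 with the deposited scaling and 2 higher with the replicate block (lamb 3 left out), and 3 to 1076 and 0 to 5 without 1 library. The H3K4me3 changes of HOXB13 and NKX2-6 turned to -0.0111 and -0.0866 with the deposited scaling (all promoters had a median of -1.28 there). The 28 higher and 256 lower in H3K27me3 became 43 and 158 with column totals, 14 and 164 with the deposited scaling and 53 higher with the replicate block, and 0 to 97 and 0 to 397 without 1 library, the 0 without lamb 2. A count test on promoter reads was not run, since the deposited signals are not counts. The replicate numbers share only a number, and the blocked counts are given for completeness. Depth limits H3K27me3 most, where a level of 1 stands for 4.51 to 5.59 reads, and H3K4me3 in lambs 2 and 3.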
